A study of Mus musculus with 9 samples.

Results

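The genes described here are 32 ER chaperones and components of the unfolded protein response, matched by gene symbol among the 24063 symbols of the deposited tables. They comprise 11 chaperones and co-chaperones, 4 disulfide isomerases, 7 stress sensors and their effectors, 8 genes of ER-associated degradation and 2 genes of translocation into the ER. The membership was set by function, but it was chosen with earlier results of these data known. Of the 32, 31 passed the filter on low counts and were tested. Derl3, a derlin paralogue of the degradation channel, did not pass and had 0 to 7 counts in each library.

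RNA came from C2C12, an established wild-type mouse myoblast line that fuses into multinucleated muscle fibres in low serum, here DMEM with 2% FBS, sampled at day 3. Control fibres stayed in normal medium, 1C-MIM fibres received 6 added metabolites tied to the one-carbon network, and scramble fibres received 6 metabolites without such a tie, with 3 libraries in each group. The labels name neither the metabolites nor their doses. Nothing in them says that the 3 libraries of a group were separate cultures, so p-values reflect the spread among libraries alone, which may be technical spread.

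Proteins that enter the secretory pathway fold in the endoplasmic reticulum (ER), where lectin and heat shock chaperones hold them and disulfide isomerases join their cysteines. When unfolded protein builds up, the membrane sensors IRE1 (Ern1), PERK (Eif2ak3) and ATF6 release BiP (Hspa5) and send signals that slow translation and raise transcription of chaperone and degradation genes. Muscle cells use the same lumen, in its specialised form the sarcoplasmic reticulum, to store calcium, and the response is known to be active for a time during myoblast differentiation.

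Count totals, with 1 transcript per gene, were 29.0 to 33.2 M per library, and the 32 genes took 0.721 to 0.803% of them. The summed level of 8 muscle fibre markers lay between 5031 and 8891 CPM (counts scaled to the normalized library size), and all 8 were detected. Of the markers of other cell types, Adipoq, Plin1, Cidec, Ptprc, Emr1, Cdh5, Kdr and Thy1 had means below 0.1 CPM over the 9 libraries. Other members of these lists were detected, such as Dcn (193 to 441 CPM), Col1a1 (727 to 911), Pdgfra (70.5 to 135) and Pparg (6.29 to 8.23). In each group the library numbered 1 had the highest summed fibre markers, at 8251 against 5725 and 5031 CPM in control, 8891 against 7687 and 7219 CPM in 1C-MIM, and 7363 against 5728 and 5923 CPM in scramble.

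Fibres given the one-carbon metabolites were first set against those in normal medium. Calr, Hyou1 and Pdia4, the sensor gene Atf6b, the phosphatase subunit gene Ppp1r15a and the degradation gene Herpud1 rose by 1.34- to 1.94-fold. Xbp1 fell, and the chaperone genes Hspa5 and Hsp90b1, both classical targets of the ER stress response, were not called. In all, 12 of the 31 tested genes rose and 4 fell at an adjusted p below 0.05, which is 51.6% called, against 47.3% of all 14006 genes tested. Split by direction, the share over all genes was 22.9% higher and 24.3% lower. Libraries of 1C-MIM and control did not overlap for 61.3% of the 31 genes, against 55.5% of all tested genes. The median log2 fold change was 0.08 over the 31 genes and -0.01 over all tested genes. None of the 31 reached a 2-fold difference, as 1094 of all tested genes did. Calls of 8 of the 16 genes held under each of the 21 alternatives tried: Hyou1, Calr, Pdia4, Atf6b, Ppp1r15a, Ppp1r15b and Herpud1 higher and Xbp1 lower. The other 8 (Atf6, Canx, Derl1, Derl2, Dnajb11, P4hb, Pdia3 and Syvn1) lost their call in at least 1 setting, and without control replicate 2 alone 7 rather than 12 genes were called higher.

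**Figure D1:**
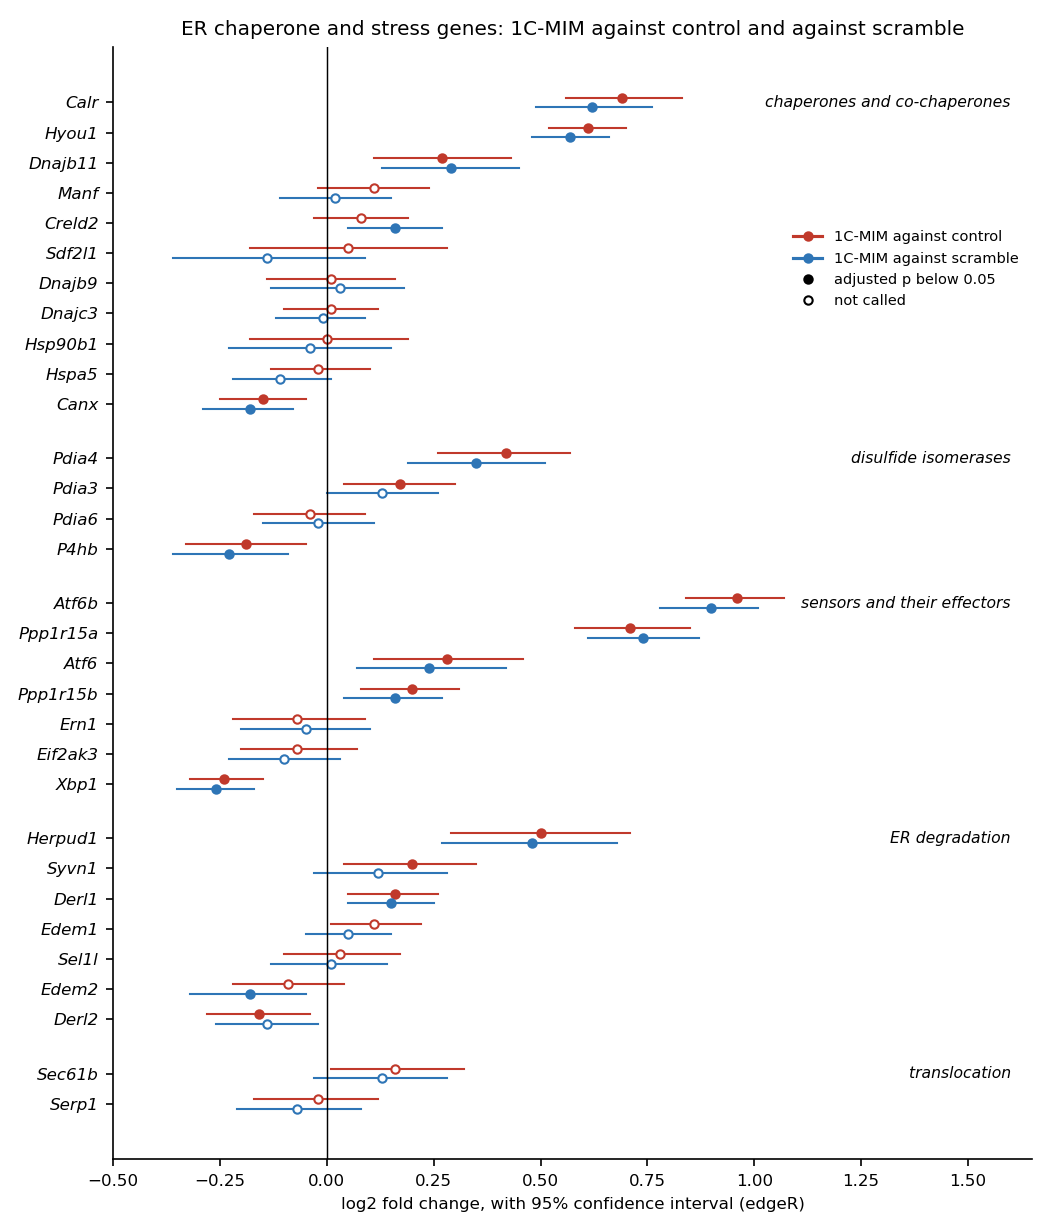
Log2 fold change of the 31 tested genes, by role, for 1C-MIM against control (red) and against scramble (blue), with 95% confidence intervals from the edgeR fit; filled points have an adjusted p below 0.05. Atf6b, at 0.96 against control, lies farthest to the right, and Xbp1, at -0.24, farthest to the left, while Hspa5 and Hsp90b1 lie at -0.02 and 0.00.

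Many ER stress genes carry the ER stress response element (ERSE), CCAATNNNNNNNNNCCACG, or its variant ERSE-II, ATTGGNCCACG, to which ATF6 and XBP1 are known to bind together with NF-Y. Promoters of 27 of the 32 genes were in the RefSeq table used (GRCm38.p6, 250 bases before to 50 after the start site). The other 5 were Derl1, Hyou1, Ppp1r15b, Atf6 and Manf. The search took exact matches alone, on both strands, so near matches were not counted. The ERSE stood in the promoters of 9 of the 27 genes, against 0.119% of all 32851 promoters in the table. ERSE-II stood in 2 of the 27, against 0.0365% of all. The CCAAT box alone, which the ERSE contains, was found in 22 of the 27, against 37.4% of all. The XBP1-type element TGACGTGG was found in none of the 27, against 0.676% of all. Genes and motifs were both chosen as parts of this pathway, so these shares are a description and not a test. The 12 elements, in 11 of the 27 genes, are shown because they match the ERSE or ERSE-II of this pathway exactly. Whether each is a stress response site was not tested. Each is written 5′ to 3′ along its own strand, with the bases that the motif fixes in capitals and the spacer in lower case.
Hspa5 ERSE, chr2:34772025-34772043, same strand as the gene: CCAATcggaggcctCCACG
Calr ERSE, chr8:84847075-84847093, strand opposite to the gene: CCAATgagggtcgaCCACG
Herpud1 ERSE-II, chr8:94386377-94386387, same strand as the gene: ATTGGgCCACG
Derl3 ERSE, chr10:75893242-75893260, strand opposite to the gene: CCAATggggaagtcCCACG
Hsp90b1 ERSE, chr10:86705638-86705656, same strand as the gene: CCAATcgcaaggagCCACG
Hsp90b1 ERSE, chr10:86705533-86705551, strand opposite to the gene: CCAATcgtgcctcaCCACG
Canx ERSE, chr11:50325800-50325818, same strand as the gene: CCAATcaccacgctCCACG
Pdia6 ERSE, chr12:17266491-17266509, same strand as the gene: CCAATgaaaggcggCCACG
Dnajc3 ERSE, chr14:118937827-118937845, same strand as the gene: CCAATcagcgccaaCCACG
Creld2 ERSE, chr15:88819520-88819538, strand opposite to the gene: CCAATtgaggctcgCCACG
Dnajb11 ERSE-II, chr16:22857852-22857862, same strand as the gene: ATTGGcCCACG
Syvn1 ERSE, chr19:6046532-6046550, same strand as the gene: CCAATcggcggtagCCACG

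Measured from its base nearest to the upstream end of the window, an element began 44 to 212 bases before the start site, except that of Dnajb11, which began 7 bases after it. Genes with an element were found among those that rose, fell and were not called. Of the 10 tested genes with one, 4 rose with 1C-MIM (Calr, Herpud1, Dnajb11 and Syvn1), 1 fell (Canx) and 5 were not called (Hspa5, Hsp90b1, Pdia6, Dnajc3 and Creld2). Of the 16 tested genes whose promoter was in the table and held neither element, 4 rose, 3 fell and 9 were not called. The median log2 fold change was 0.04 with an element and 0.02 without. Of all 14006 genes tested, 22.9% rose and 24.3% fell. Outside the set, 17 tested genes held an ERSE or ERSE-II, of which 4 rose and 5 fell (median log2 fold change -0.18). A match is a description of the letters and was not shown to be bound here.

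The 250 bases before the start site are given for 4 chaperone genes that each hold an exact ERSE match and had unlike responses. Hspa5 and Hsp90b1 were not called, Calr rose and Canx fell. Sequences run 5′ to 3′ in the direction of the gene, with the fixed bases of each ERSE in capitals; an element on the opposite strand reads here as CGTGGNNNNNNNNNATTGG.
Hspa5, chr2:34771840-34772089, plus strand: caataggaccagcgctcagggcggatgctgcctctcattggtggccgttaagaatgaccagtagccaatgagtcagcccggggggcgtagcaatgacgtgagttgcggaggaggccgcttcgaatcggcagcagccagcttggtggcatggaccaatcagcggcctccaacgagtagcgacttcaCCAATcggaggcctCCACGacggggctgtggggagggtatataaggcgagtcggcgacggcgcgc
Hsp90b1, chr10:86705445-86705694, minus strand: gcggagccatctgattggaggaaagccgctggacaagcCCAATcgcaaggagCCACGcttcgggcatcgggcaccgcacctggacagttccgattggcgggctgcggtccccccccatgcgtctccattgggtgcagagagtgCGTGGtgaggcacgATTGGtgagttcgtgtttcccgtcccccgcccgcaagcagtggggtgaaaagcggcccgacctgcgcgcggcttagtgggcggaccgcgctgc
Calr, chr8:84846932-84847181, minus strand: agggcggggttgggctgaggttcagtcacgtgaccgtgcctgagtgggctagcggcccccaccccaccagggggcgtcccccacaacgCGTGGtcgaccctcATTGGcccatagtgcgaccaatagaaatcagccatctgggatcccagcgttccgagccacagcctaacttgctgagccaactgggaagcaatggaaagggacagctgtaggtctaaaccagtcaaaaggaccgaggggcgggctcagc
Canx, chr11:50325674-50325923, minus strand: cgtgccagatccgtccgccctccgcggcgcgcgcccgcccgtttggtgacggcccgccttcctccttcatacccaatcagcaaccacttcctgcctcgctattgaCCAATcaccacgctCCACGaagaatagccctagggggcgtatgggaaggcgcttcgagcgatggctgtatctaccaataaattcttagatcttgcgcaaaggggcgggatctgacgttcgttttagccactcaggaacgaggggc

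Among the 11 chaperones and co-chaperones, 3 rose with 1C-MIM, 1 fell and 7 were not called (36.4% called, against 47.3% of all tested genes). Calr encodes calreticulin, the soluble lectin chaperone that also buffers ER calcium. Its level was 963, 1032 and 1082 CPM in control replicates 1 to 3, 1601, 1656 and 1715 CPM in 1C-MIM, and 1063, 1072 and 1094 CPM in scramble. All 3 libraries of 1C-MIM lay above the other 6, and Calr was 1.62-fold higher than in control (log2 fold change 0.69 ± 0.06 SE, adjusted p = 8.9e-06). Canx encodes calnexin, the membrane-bound partner of calreticulin in the same glycoprotein folding cycle. It stood at 506, 485 and 481 CPM in control, 444, 443 and 440.1 CPM in 1C-MIM, and 489, 509 and 509.9 CPM in scramble. Canx was thus lowest in the 3 1C-MIM libraries, by a small amount (-0.15 ± 0.05, adjusted p = 0.023). Its call was lost without 1C-MIM replicate 2 (adjusted p = 0.0643) or replicate 3 (adjusted p = 0.0676).

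Hspa5 encodes BiP, the main ER member of the heat shock protein family and the brake on the stress sensors. Its level was 714, 705 and 694 CPM in control, 719, 698 and 671 CPM in 1C-MIM, and 759, 759 and 731 CPM in scramble. Control and 1C-MIM overlapped, with a log2 fold change of -0.02 and a 95% confidence interval from -0.13 to 0.10. Hyou1, the large heat shock relative that releases nucleotide from BiP, stood at 118, 117 and 115 CPM in control, 181, 178 and 174 CPM in 1C-MIM, and 123, 119.8 and 116 CPM in scramble. It rose 1.53-fold (0.61 ± 0.04, adjusted p = 2.3e-06), so the exchange factor rose and BiP was not called. Hsp90b1, the ER form of the HSP90 chaperone, ranged from 975 to 1147 CPM in control, 986 to 1135 CPM in 1C-MIM and 1015 to 1165 CPM in scramble. Its log2 fold change was 0.00 with an interval from -0.18 to 0.19.

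Dnajb11, a J-domain co-chaperone of BiP, stood at 118, 95.3 and 97.8 CPM in control, 128, 123 and 124 CPM in 1C-MIM, and 107, 98.3 and 102 CPM in scramble. It rose 1.21-fold (0.27 ± 0.07, adjusted p = 0.010), with an adjusted p of 0.0533 without control replicate 2. The other J-domain proteins were not called. Dnajb9, which guides BiP to IRE1, had a log2 fold change of 0.01 (95% interval -0.14 to 0.16), and Dnajc3, also a BiP co-chaperone, had 0.01 (-0.10 to 0.12). Sdf2l1, which acts with Dnajb11, had the fewest counts of the genes tested, 310 to 415 per library, and its interval was the widest of the uncalled chaperones (-0.18 to 0.28). Creld2 and Manf, small ER proteins that stressed cells can secrete, had values of 0.08 (-0.03 to 0.19) and 0.11 (-0.02 to 0.24).

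**Figure D2:**
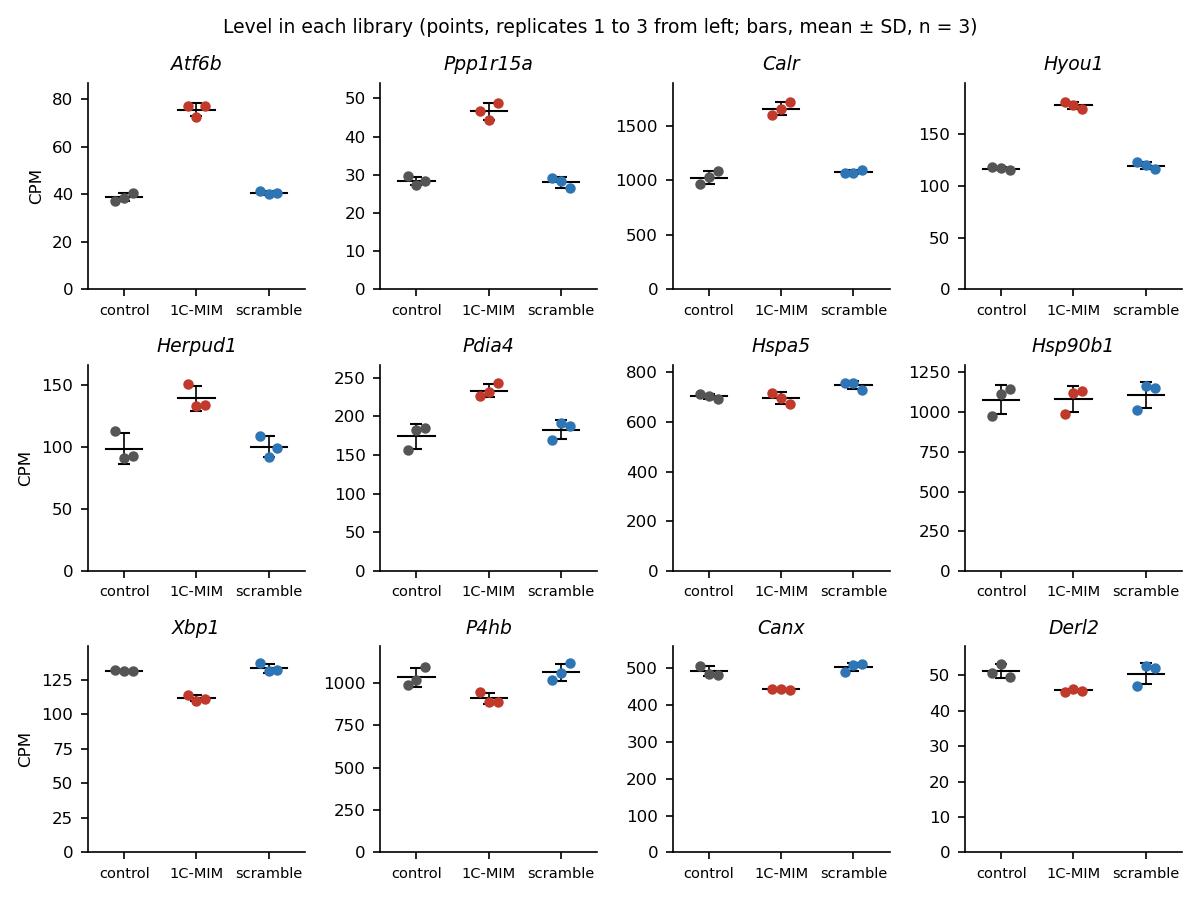
Level of 12 genes in each library in CPM (points, replicates 1 to 3 from the left in each group; bars, mean ± SD of 3 libraries), on axes that start at 0. The 1C-MIM libraries lie above all others for Atf6b, Ppp1r15a, Calr, Hyou1, Herpud1 and Pdia4 and below all others for Xbp1, P4hb, Canx and Derl2. Hspa5 and Hsp90b1 overlap between 1C-MIM and control. Between these groups, libraries did not overlap for 61.3% of the 31 genes and for 55.5% of all tested genes.

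Of the 4 disulfide isomerases, which form and reshuffle cysteine bonds, 2 rose and 1 fell. Pdia4 was at 156, 182 and 185 CPM in control, 226, 231 and 243 CPM in 1C-MIM, and 169, 192 and 187 CPM in scramble. It rose 1.34-fold (0.42 ± 0.07, adjusted p = 0.00071), with no overlap between 1C-MIM and the other groups. Pdia3, the isomerase that works with calreticulin and calnexin on glycoproteins, was at 542, 598 and 612 CPM in control, 637, 666 and 665 CPM in 1C-MIM, and 578, 616 and 603 CPM in scramble. The rise of Pdia3 was small (0.17 ± 0.06, adjusted p = 0.037). Its call was lost in many settings, among them without control replicate 1 (adjusted p = 0.0751), with upper quartile scaling (0.0743) and with library size alone (0.109). P4hb, an abundant isomerase that is also the beta subunit of collagen prolyl hydroxylase, was at 988, 1020.2 and 1097 CPM in control, 947, 889.7 and 889.6 CPM in 1C-MIM, and 1017, 1056 and 1116 CPM in scramble. P4hb fell to 0.88 of its control level (-0.19 ± 0.06, adjusted p = 0.029), and was not called without control replicate 3 (adjusted p = 0.108). Pdia6, which is known to act on IRE1, ranged from 334 to 369 CPM in control and from 331 to 353 CPM in 1C-MIM and was not called (-0.04, 95% interval -0.17 to 0.09). The summed level of the 4 isomerases was 2143 ± 121 CPM in control and 2138 ± 13 CPM in 1C-MIM (SD, n = 3).

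Of the 7 sensor and effector genes, 4 rose and 1 fell (71.4% called, against 47.3% of all tested genes). In the ATF6 branch, Atf6b, the paralogue of ATF6 with a weaker activation domain, had the largest change of the 31 genes. It stood at 37.1, 38.6 and 40.7 CPM in control, 77.0, 72.3 and 77.1 CPM in 1C-MIM, and 41.4, 39.9 and 40.4 CPM in scramble. The 3 libraries with 1C-MIM lay far above the other 6 (0.96 ± 0.05, 1.94-fold, adjusted p = 5.4e-07). Atf6 itself was at 206, 169.9 and 171 CPM in control, 214, 219.9 and 232 CPM in 1C-MIM, and 203, 177 and 182 CPM in scramble. Atf6 rose 1.22-fold (0.28 ± 0.08, adjusted p = 0.012), although control replicate 1 lay close to the lowest 1C-MIM library. Its adjusted p was 0.0609 without control replicate 2 and 0.0506 without 1C-MIM replicate 3.

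In the IRE1 branch, Xbp1, whose messenger IRE1 splices to make an active transcription factor, was at 132, 131 and 131 CPM in control, 114, 109.9 and 111 CPM in 1C-MIM, and 137, 131 and 132 CPM in scramble. All 1C-MIM libraries were lower than all others, and Xbp1 fell (-0.24 ± 0.04, 0.85-fold, adjusted p = 0.00073). Both deposited Xbp1 transcripts carry the same counts, so its spliced and unspliced forms cannot be told apart. Ern1, the gene of IRE1 itself, overlapped between 1C-MIM and control (-0.07, 95% interval -0.22 to 0.09).

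In the PERK branch, Eif2ak3 encodes the kinase that phosphorylates eIF2 alpha, and Ppp1r15a and Ppp1r15b encode the subunits that direct a phosphatase back to it, the first inducible and the second constitutive. Eif2ak3 was not called (-0.07, 95% interval -0.20 to 0.07). Ppp1r15a was at 29.6, 27.4 and 28.3 CPM in control, 46.8, 44.3 and 48.8 CPM in 1C-MIM, and 29.1, 28.4 and 26.5 CPM in scramble. It rose 1.64-fold with no overlap (0.71 ± 0.06, adjusted p = 6.8e-06). Ppp1r15b was at 100.3, 101 and 107 CPM in control, 121, 119 and 112 CPM in 1C-MIM, and 104, 101 and 111 CPM in scramble, and it rose by a small amount (0.20 ± 0.05, adjusted p = 0.0096). So both phosphatase subunit genes rose and the kinase gene was not called.

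Of the 7 tested degradation genes, 3 rose and 1 fell (57.1% called, against 47.3% of all tested genes). Herpud1, a membrane scaffold of the degradation complex, was at 113, 90.8 and 92.5 CPM in control, 151, 133 and 134 CPM in 1C-MIM, and 109, 92.2 and 98.9 CPM in scramble. It rose 1.41-fold (0.50 ± 0.09, adjusted p = 0.0013), and the library numbered 1 was the highest of each group. Derl1, which helps to form the channel for export of misfolded protein, was at 150.2, 142 and 136 CPM in control, 159, 159.8 and 159 CPM in 1C-MIM, and 146, 145 and 139.9 CPM in scramble. Its rise was 1.11-fold (0.16 ± 0.05, adjusted p = 0.017). Its paralogue Derl2 went the other way, from 50.6, 53.3 and 49.6 CPM in control to 45.4, 46.2 and 45.7 CPM in 1C-MIM, with 47.0, 52.5 and 52.0 CPM in scramble. Derl2 fell (-0.16 ± 0.06, adjusted p = 0.032).

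Syvn1, the ubiquitin ligase HRD1, rose from 47.8, 41.5 and 41.7 CPM in control to 51.7, 49.7 and 48.9 CPM in 1C-MIM (0.20 ± 0.07, adjusted p = 0.038), with 49.7, 44.4 and 43.7 CPM in scramble. Syvn1 lost its call without control replicate 2 (adjusted p = 0.149) and without control replicate 3 (adjusted p = 0.121). Derl1 lost its call without the same libraries (adjusted p = 0.0626 and 0.0719), and Derl2 lost its call without control replicate 2 (adjusted p = 0.0975) and without any 1 of the 1C-MIM libraries. Sel1l, the adaptor of HRD1, was not called (0.03, 95% interval -0.10 to 0.17). Edem1 and Edem2, which mark misfolded glycoproteins by trimming mannose, had log2 fold changes of 0.11 (0.01 to 0.22, adjusted p = 0.061) and -0.09 (-0.22 to 0.04). Without 1C-MIM replicate 2, Edem1 had an adjusted p of 0.0355.

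Neither translocation gene was called. Sec61b, a subunit of the protein channel of the ER membrane, had a log2 fold change of 0.16 (95% interval 0.01 to 0.32, adjusted p = 0.082), and an adjusted p of 0.0234 without control replicate 3. Serp1, which binds the channel under stress, had -0.02 (-0.17 to 0.12). Of the 15 genes not called between 1C-MIM and control, 13 had intervals that lay within a 1.2-fold change in either direction. The 2 exceptions were Sdf2l1 and Sec61b.

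Exons of some of these genes overlap a gene on the opposite strand, and nothing in the sources states if reads were counted by strand. This holds for Derl2 (with Mis12), Syvn1 (Mrpl49), Serp1 (Eif2a), Hsp90b1 (1810014B01Rik), Pdia6 (Atp6v1c2), Pdia3 (Catsper2), Ppp1r15a (Tulp2), Ppp1r15b (Gm26616), Eif2ak3 (Gm43292), Manf (4930524O07Rik) and Dnajb9 (Mir5627). The overlap ran from 11 bases for Ppp1r15a to 640 bases for Ppp1r15b. Reads from such a pair cannot be told apart in the overlap.

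Scramble libraries served as the control for adding 6 metabolites of any kind. Between 1C-MIM and scramble, 11 of the 31 genes rose and 4 fell (48.4% called, against 46% of all tested genes, 22.9% higher and 23.2% lower). This comparison uses the same 1C-MIM libraries as the first. Libraries of 1C-MIM and scramble did not overlap for 61.3% of the 31 genes, against 59.5% of all tested genes. Calr was 0.62 ± 0.06 higher (adjusted p = 2.0e-05), Hyou1 0.57 ± 0.04, Atf6b 0.90 ± 0.05, Ppp1r15a 0.74 ± 0.06, Pdia4 0.35 ± 0.07 and Herpud1 0.48 ± 0.09 on the log2 scale. Xbp1 fell by 0.26 ± 0.04 (adjusted p = 0.00044), Canx by 0.18 ± 0.05 and P4hb by 0.23 ± 0.06. Creld2 rose (0.16 ± 0.05, adjusted p = 0.020) and Edem2 fell (-0.18 ± 0.06, adjusted p = 0.028) in this comparison alone. Their values were 0.08 and -0.09 between 1C-MIM and control, and -0.09 and 0.09 between scramble and control, none of them called. Calls of 9 of the 15 genes held under each of the 21 alternatives. The other 6 (Atf6, Creld2, Derl1, Edem2, P4hb and Ppp1r15b) lost their call in at least 1 setting. Pdia3 (adjusted p = 0.092), Syvn1 (0.17) and Derl2 (0.055) were not called. Hspa5 was at -0.02 between 1C-MIM and control, and its scramble libraries lay above all those of control (0.09, not called). It was lower in all 3 1C-MIM libraries than in scramble, at 0.93-fold, but did not pass edgeR's test (-0.11 ± 0.05, adjusted p = 0.11). It was called lower with DESeq2 (adjusted p = 0.0292), with scaling by library size only (0.0418) and without the 3 libraries numbered 1 (0.0068). Without 1C-MIM replicate 2 or without scramble replicate 3, the number of genes called lower was 2 rather than 4, and without the 3 libraries numbered 1 it was 8.

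Scramble and control did not differ in any of the 31 genes by the test. edgeR called 0 of them and 0.00% of all tested genes. In that fit 0 of the 31 had an unadjusted p below 0.05, as 482 of all genes did. DESeq2 and limma-voom also called 0 of the 31. However, DESeq2 gave some of the 31 no adjusted p, so those could not be called by it. Over all tested genes DESeq2 called 30 and limma-voom 0, and edgeR called 96 without the 3 libraries numbered 1, none of them among the 31. For 30 of the 31, the 95% interval lay within a 1.2-fold change in either direction. The exception was Sdf2l1 (0.19, interval -0.04 to 0.41). Libraries of these 2 groups with the same number deviated together, most of all those numbered 1. With the replicate number as a block, edgeR again called 0 of the 31.

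Levels of different genes can be compared only per transcript length, for which the authors' TPM values were used. In control, Calr stood highest at 732 ± 28 TPM (SD, n = 3). P4hb (566 ± 25) and Hsp90b1 (542 ± 31) followed, closer to each other than their SD, and then Hspa5 (374 ± 17) and Pdia3 (306 ± 11). With 1C-MIM, Calr reached 1199.8 ± 36 TPM and stayed first, while Hsp90b1 (550.5 ± 39) stood above P4hb (504 ± 21). Eif2ak3 was lowest of the tested genes in control at 9.63 ± 0.16 TPM, with Edem1 (12.9 ± 0.50), Ern1 (13.5 ± 1.5) and Sdf2l1 (14.3 ± 1.7) next and within their spread of each other. Atf6b moved from rank 23 in control (21.0 ± 0.71 TPM) to rank 19 in 1C-MIM (41.4 ± 1.6 TPM), level with Atf6 (41.8 ± 1.6 TPM). Hyou1 went from 36.6 ± 1.6 to 56.5 ± 1.4 TPM. Derl3 was at 0.0922 ± 0.11 TPM in control.

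**Figure D3:**
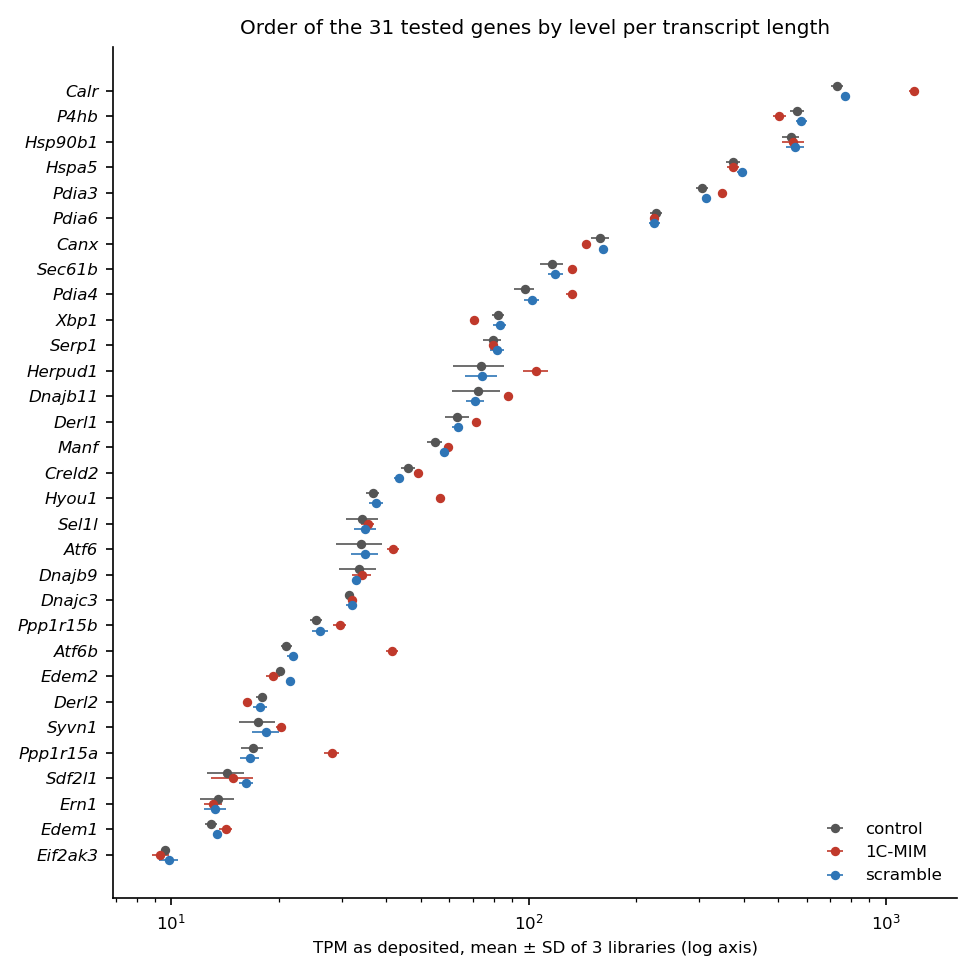
TPM as deposited (log axis), mean ± SD of 3 libraries, for the 31 tested genes in the order of their level in control. Most groups lie close together for a gene; the 1C-MIM points of Calr, Hyou1, Atf6b and Ppp1r15a lie to the right of those of control and scramble.

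Several genes form pairs with related roles, and their TPM ratio within a library does not depend on how libraries are scaled. The 6 pairs were chosen after their values had been seen, so the ratios are a description. Calr to Canx was 4.20 to 4.97 in control, 7.96 to 8.59 in 1C-MIM and 4.65 to 4.79 in scramble. The ratio of the transcripts was thus higher in every 1C-MIM library than in the other 6. Hyou1 to Hspa5 was 0.0976 to 0.0980 in control, 0.149 to 0.153 in 1C-MIM and 0.0932 to 0.0960 in scramble. Atf6b to Atf6 was 0.524 to 0.694 in control, 0.957 to 1.05 in 1C-MIM and 0.594 to 0.653 in scramble. Ppp1r15a to Ppp1r15b was 0.634 to 0.708, 0.889 to 1.04 and 0.572 to 0.676 in the same order. Derl1 to Derl2 was 3.36 to 3.73, 4.36 to 4.41 and 3.38 to 3.91, and Edem1 to Edem2 was 0.606 to 0.687, 0.709 to 0.788 and 0.609 to 0.634. In all 6 pairs the 1C-MIM libraries lay above the other 6. The gene with the higher log2 fold change against control stands first in each pair, so that shared direction was set by the choice.

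**Figure D4:**
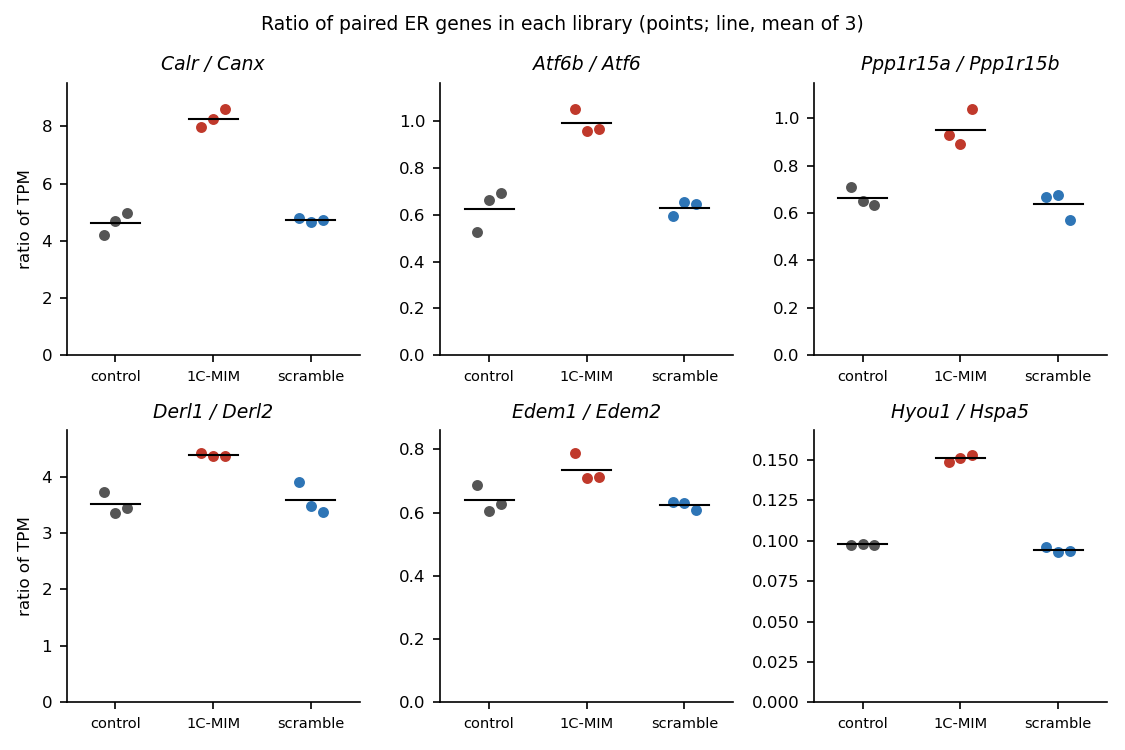
Ratio of the TPM of 2 related genes in each library (points, replicates 1 to 3 from the left; line, mean of 3), on axes that start at 0. The 1C-MIM libraries lie above control and scramble in each of the 6 panels, from 7.96 to 8.59 for Calr to Canx. Pairs were chosen after their values had been seen, with the gene of higher log2 fold change first.

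Summed over the 32 genes, the level was 7288 ± 209 CPM in control, 8107 ± 91 CPM in 1C-MIM and 7509.6 ± 162 CPM in scramble (SD, n = 3). Without Calr the sums were 6262 ± 149, 6450.0 ± 35 and 6433 ± 150 CPM, so that most of the difference in the sum was Calr. Chaperones and co-chaperones summed to 3826 ± 118 CPM in control and 4496 ± 103 CPM in 1C-MIM. Most of that difference was also Calr, at 1026 ± 60 CPM in control and 1657 ± 57 CPM in 1C-MIM. Degradation genes summed to 579.8 ± 30 and 644 ± 17 CPM in the same order.

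The libraries numbered 1 stood apart in these genes as in the fibre markers. In all 3 groups replicate 1 was the highest for 8 of the 31 genes (Hspa5, Hyou1, Dnajb11, Ern1, Xbp1, Herpud1, Sel1l and Syvn1), or 25.8%, against 13.6% of all tested genes. It was the lowest for 7 (Hsp90b1, Calr, Pdia3, Pdia4, Pdia6, Edem2 and Sec61b), or 22.6%, against 12.5%. Without the 3 libraries numbered 1, 12 genes were again called higher and 4 lower between 1C-MIM and control. Marker genes of several lists also differed between the groups, and their part in the results was not tested. Summed fibre markers were 5031 to 8251 CPM in control and 7219 to 8891 CPM in 1C-MIM, which overlap. Within that list Myog was 316 to 462 CPM in control and 779 to 927 CPM in 1C-MIM, Mymk 132 to 304 and 336 to 444 CPM, and Ckm 45.1 to 78.8 and 110.1 to 147 CPM, whereas Mylpf was 2018 to 2299 and 1642 to 1746 CPM. Summed fibroblast markers, 5 genes, were 997 to 1152 CPM in control, 1351 to 1502 CPM in 1C-MIM and 1181 to 1193 CPM in scramble. Dcn (193 to 204 against 434 to 441 CPM) and Lum (2.17 to 2.69 against 21.8 to 27.8 CPM) were higher in 1C-MIM than in control, and Col1a1 overlapped. Summed myoblast or reserve cell markers, 6 genes, were 672 to 750.1, 873 to 946 and 741 to 779.8 CPM in control, 1C-MIM and scramble. Members of that list went opposite ways: in control and 1C-MIM, Notch3 was 198 to 205 and 395 to 465 CPM and Vcam1 162 to 169 and 290.2 to 339 CPM, but Cd34 was 111 to 134 and 43.0 to 50.8 CPM and Ccnd1 141 to 190.4 and 57.4 to 67.1 CPM. Myf5 overlapped between the groups. In bulk RNA, a change in the share of a cell type and a change in the RNA of each cell cannot be told apart.

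Other genes of the same pathways were followed in lists made with earlier results of these data known. Folding enzymes outside the set were called higher in 12 and lower in 3 of 25 genes tested (median 0.15). Prkcsh and Ganab, the subunits of glucosidase II that trims glycans ahead of the calnexin and calreticulin cycle, rose from 77.3 ± 2.3 to 113 ± 3.2 CPM and from 166 ± 7.4 to 220.3 ± 6.8 CPM (SD, n = 3). Pdia5, another isomerase, rose from 20.7 ± 0.97 to 32.1 ± 1.0 CPM (0.63 ± 0.06, adjusted p = 1.5e-05). Ero1l, the oxidase that recharges the isomerases, fell from 56.1 ± 5.2 to 35.3 ± 1.9 CPM (-0.67 ± 0.08, adjusted p = 5.9e-05). Without control replicate 1, 6 folding enzymes were called lower in place of 3, and 5 when counts were scaled by library size only.

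Of 25 other degradation genes, 8 rose and 1 fell (36.0% called, against 47.3% of all tested genes, median 0.09). Those that rose included Ddrgk1, of the UFM1 pathway (0.30 ± 0.06), the ubiquitin-conjugating enzyme gene Ube2j1 (0.25 ± 0.05) and Faf2, which recruits the p97 ATPase (0.21 ± 0.04). Without the 3 libraries numbered 1, 13 rose and 3 fell, without control replicate 1 alone 3 fell, and 4 fell when counts were scaled by library size only. Of 28 genes of translocation, signal peptide cleavage and glycosylation, 7 rose and 4 fell (39.3% called, median 0.08). Srpr, the receptor of the signal recognition particle, rose (0.36 ± 0.04), as did Srp68 of the particle (0.29 ± 0.04), while Tram1 (-0.23 ± 0.04) and the signal peptidase subunit gene Spcs3 (-0.22 ± 0.05) fell. Without control replicate 1, 8 of these genes were called lower in place of 4.

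Genes of the PERK and ATF4 list, which also holds the other eIF2 kinases and a subunit of eIF2, were split. Of 24 genes, 7 were higher and 7 lower (58.3% called, against 47.3% of all tested genes, median -0.05). Atf4, the transcription factor whose translation rises when eIF2 alpha is phosphorylated, was at 229, 235 and 243 CPM in control, 277, 259 and 272 CPM in 1C-MIM and 239.8, 247 and 241 CPM in scramble, and it rose (0.19 ± 0.05, adjusted p = 0.0053). Ddit3, the stress-linked factor CHOP, was at 21.2 ± 1.0 CPM in control (SD, n = 3), 18.1, 17.6 and 16.7 CPM in 1C-MIM and 18.3, 19.2 and 19.2 CPM in scramble. It fell against control (-0.28 ± 0.06, adjusted p = 0.0044) and was not called against scramble (-0.11 ± 0.06, adjusted p = 0.18). Trib3, a pseudokinase induced by ATF4 and CHOP, rose from 7.28 ± 0.53 to 9.24 ± 0.52 CPM (0.34 ± 0.10, adjusted p = 0.015) and was at 5.30 ± 0.47 CPM in scramble. The amino acid transporter subunit Slc3a2 rose (0.63 ± 0.05) and its partner Slc7a11, the cystine transporter, fell (-0.83 ± 0.10). Sesn2 rose (0.55 ± 0.07) and Nupr1 fell (-0.89 ± 0.10).

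Among other ER membrane stress factors and proteases, 8 of 18 rose and 1 fell (median 0.11). Bcl2l11, the pro-apoptotic BIM, rose from 22.1 ± 2.0 to 52.5 ± 7.3 CPM (1.25 ± 0.11, adjusted p = 9.5e-06), Casp12 rose (0.51 ± 0.10), and Mbtps1, the Golgi protease that cuts ATF6, rose (0.26 ± 0.04). The 1 fall was lost without control replicate 3 or without any 1 of the 1C-MIM libraries. Of 24 genes of ER to Golgi transport, 10 rose and 5 fell (62.5% called, median 0.09). Sec13 of the vesicle coat (0.41 ± 0.05) and the cargo receptor gene Lman1 (0.26 ± 0.05) were higher. Arfgap3 (-0.42 ± 0.05) and Sec23a (-0.23 ± 0.05) were lower. Of 15 procollagen modifying genes, 4 rose and 6 fell (66.7% called, median 0.01). Serpinh1, the collagen chaperone, rose from 735 ± 41 to 1065 ± 23 CPM (0.53 ± 0.06), whereas P4ha1, the catalytic partner of P4hb, fell from 383 ± 19 to 274 ± 12 CPM (-0.48 ± 0.06), as P4hb did. Plod1, a lysyl hydroxylase, fell (-0.45 ± 0.06), and Glt25d1, a collagen galactosyltransferase, rose (0.43 ± 0.05). Between scramble and control edgeR, DESeq2 and limma-voom called 0 genes of these lists, where a gene without an adjusted p from DESeq2 counts as not called. In the edgeR fit 2 had an unadjusted p below 0.05. These were Trib3 (-0.46 ± 0.10) and Ddit3 (-0.17 ± 0.06), each with an adjusted p of 1.

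**Figure D5:**
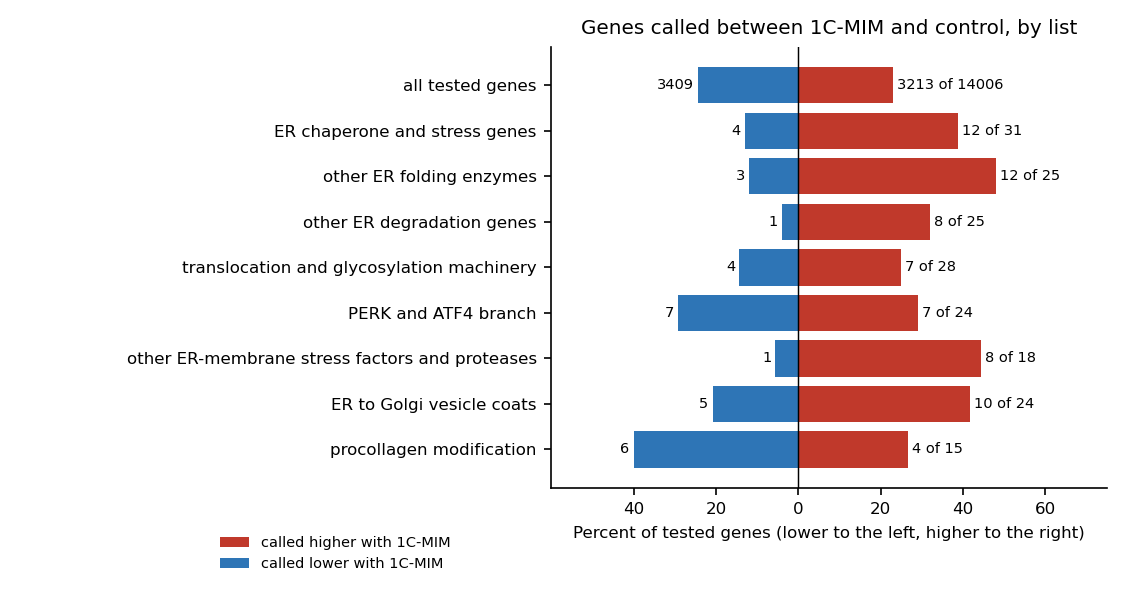
Share of tested genes called higher (right, red) and lower (left, blue) with 1C-MIM against control, at an adjusted p below 0.05, for all tested genes, the 31 ER chaperone and stress genes and the 7 lists of related genes; figures beside the bars are numbers of genes. The 31 genes had 12 higher and 4 lower, and the procollagen list was the 1 list with more genes lower (6) than higher (4).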

How the data were processed

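RNA of 9 C2C12 libraries was sequenced by the submitters, per the labels' protocols from 1.3 ug of total RNA with SMARTER chemistry. The build GRCm39 and the tools STAR, Salmon 1.5.2, featureCounts (Subread 2.0.1), StringTie 2.2.1, Trim Galore 0.6.7 and DESeq2 1.28.0 appear in the submitters' processing notes. What each tool did was not given in the sources used here. Counts, FPKM and TPM for 33984 transcripts fill each deposited table, per the file headers. The deposited counts are whole and not normalized. The authors' FPKM values were not used in any test, and the authors' TPM values served only for levels and ratios between genes.

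More than 1 transcript was listed for 5261 of the 24063 symbols, and the transcript with the highest mean count stood for the gene. Genes were tested with edgeR 4.0.16 (R 4.3.3): filterByExpr, TMM, robust quasi-likelihood F-test, all 9 libraries in 1 fit, Benjamini-Hochberg adjustment over 14006 genes, called at adjusted p below 0.05. SE and 95% intervals come from that fit. Count totals (29.0 to 33.2 M) limit precision most for Sdf2l1 and Derl3. Replicates of a group differed by more than sampling noise. Alternatives were 3 other scalings, 2 other filters, DESeq2 1.42.0, limma-voom (limma 3.58.1), a replicate block, a fit of the compared groups alone, the mean over transcripts, each library left out, the libraries numbered 1 left out and an adjusted p below 0.01. The edgeR step was tested on simulated data.

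Same-numbered control and scramble libraries deviated together (r = 0.481, 0.214 and 0.168 across genes for numbers 1 to 3, each above 0.1). The titles' numbers were therefore tried as pairs in the replicate block, while the reported fit, with its SE and intervals, used group only. However, control replicate 2 also correlated with scramble replicate 3 (0.123), and control replicate 3 correlated more with scramble replicate 2 (0.242). Pairing by number was thus not shown for replicates 2 and 3. The genes, lists, markers and motifs were chosen with earlier results of these data known. All 32 genes could be named, and from each list up to 4 genes with the smallest p between 1C-MIM and control and up to 2 between scramble and control, plus Ddit3, Atf4 and Trib3. Of 195 list and marker genes, 180 matched by symbol, 14 by RefSeq accession and 1 (Sec12) not at all. Promoters are RefSeq sequences of GRCm38.p6, and exon overlaps were read from the GENCODE annotation of the same major build, not from GRCm39.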

Additional observations from a re-analysis of the deposited data

How the results depend on the processing

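Against control, 605 of 651 single-gene values over 21 alternatives kept their side of the threshold. The comparison with scramble kept 600 of 651, and scramble against control 639 of 639. In the last, the rest of the 651 had no adjusted p from DESeq2 and were left out. No called gene changed sign under any of these. Genes that were not called did, 6 of them in each comparison with 1C-MIM and 17 between scramble and control, with values of at most 0.09 in size after the change, and Hsp90b1, at 0.00 against control, ranged from -0.07 to 0.06 with 1 library left out. Against control, fitting the compared groups alone left 2 genes lower, and an adjusted p below 0.01 left 7 higher and 1 lower. Leaving out 1 library at a time gave 7 to 12 higher (7 without control replicate 2) and 1 to 4 lower (1 without 1C-MIM replicate 2 or 3). Against scramble, library size alone gave 7 higher, and leaving out the 3 libraries numbered 1 gave 8 lower. An adjusted p below 0.01 left 7 higher and 2 lower there. Each library in turn left out gave 8 to 12 higher and 2 to 5 lower (2 without 1C-MIM replicate 2 or scramble replicate 3). The cause was not tested. Same-numbered libraries correlated at 0.194, 0.084 and 0.104 between control and 1C-MIM. Between 1C-MIM and scramble they correlated at 0.153, 0.035 and 0.028, so in neither case were all above 0.1. The reported fit did not pair libraries in any comparison. The replicate block gave 13 higher and 4 lower against control (Sec61b added), 13 and 5 against scramble, and 0 and 0 between scramble and control. Depth limits Sdf2l1 and Derl3 most.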
